A study of Mus musculus with 12 samples.

Results

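A set of 9 genes that mark dendritic cells was followed through the first weeks of life in Ly6G+ cells of the mouse spleen: Itgax, Zbtb46, Flt3, Batf3, Xcr1, Clec9a, Cd209a, Adamdec1 and Siglech. Positions given for them are those of GENCODE M21 on GRCm38. They were taken by name, with earlier results of these data known, and all 9 were found among the 38887 genes of the count table. The series asks which mechanisms control a passing suppressive activity of neutrophils in newborns. Polyadenylated RNA was sequenced from cells of mice aged 2 days, 7 days, 14 days and 6 weeks, with 3 libraries per age and 12 in all. Ly6G+ spleen cells are the named source at all 4 ages, and the labels class them as PMN-MDSC, that is, neutrophils able to restrain T cells (polymorphonuclear myeloid-derived suppressor cells). The labels give no treatment, genotype, strain or sex, and nothing in them tells whether replicate libraries stem from different animals. The p-values therefore rest on variation among libraries, and this may be technical in origin.

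Dendritic cells capture antigen and show it to T cells on MHC class II and class I molecules. Conventional type 1 cells depend on the transcription factor Batf3 and specialise in taking up dead cells, conventional type 2 cells mainly prime CD4+ T cells, and plasmacytoid cells are known for making type I interferon. All of them develop under the cytokine Flt3 ligand, and they are a small population of the spleen beside B cells, T cells and red pulp macrophages.

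Library totals ran from 34495767 to 38795913 counts, and 18912 to 20255 genes were detected per library. Neutrophil markers were abundant: 13 of them, among them Ly6g, summed to 68765 to 101600 CPM in each library, where CPM is the count divided by the normalized library size in units of 1e+06. The 9 dendritic cell genes summed to 31.5 to 326.5 CPM, mostly Itgax at 2 days, 14 days and 6 weeks. A pair of libraries stood apart from the others of their age, 2-day replicate 2 with a normalization factor of 0.828 and 14-day replicate 1 with 0.918. Y-linked transcripts (Ddx3y, Eif2s3y, Kdm5d and Uty) came to 1816 to 4010 counts in each 2-day and 7-day library and to 0 or 1 count in each 14-day and 6-week library, so sex and age cannot be told apart where an age from the first pair is set against one from the second.

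The step from 7 to 14 days raised most of the 9 genes. At 14 days 8 of the 9 genes were higher than at 7 days and 0 were lower, beside 24% of all 15494 tested genes that were higher, 21.9% that were lower and 45.9% called in either direction. The median log2 fold change of the 9 was 1.51, against 0.02 over all tested genes. Itgax rose most, 18-fold, and Zbtb46 least among the 8, 2.45-fold. Siglech was at 1.52 ± 0.797 CPM at 14 days against 3.28 ± 0.557 CPM at 7 days (SD, n = 3 each), which missed the threshold. A gene was called when the Benjamini-Hochberg adjusted p of edgeR's quasi-likelihood test was below 0.05. In bulk RNA, a change in the number of dendritic cells among the sorted cells and a change of RNA per cell cannot be told apart. Nor can either be told from a change of transcription in the Ly6G+ neutrophils themselves, which was not tested.

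Between 14 days and 6 weeks no such step was seen. In that comparison 0 of 9 genes were called with edgeR, where 18.9% of all tested genes were called in either direction (9.26% higher and 9.68% lower), and 3 of them (Flt3, Clec9a and Batf3) had an unadjusted p below 0.05. DESeq2 and limma-voom each called 2, Flt3 as lower and Batf3 as higher at 6 weeks. The first week was mixed: 5 genes were higher and 1 lower at 7 days than at 2 days, against 22.9% and 25.8% of all tested genes (48.7% in either direction). Across the whole interval, 8 of 9 were higher at 6 weeks than at 2 days (19.7% of all tested genes, and 40.4% called in either direction) and 8 of 9 at 14 days than at 2 days (12.8%). At 6 weeks against 7 days 7 were higher and 1 lower (26.6% and 24.5% of all tested genes, 51% in either direction). Mast cell markers differed in every comparison with 2 days. Of 8, 8 were lower at 7 days, 7 at 14 days and 7 at 6 weeks, and their sum ran from 3834 to 6264 CPM at 2 days, 586 to 798 CPM at 7 days, 991 to 1072 CPM at 14 days and 1402 to 1605 CPM at 6 weeks. From 7 days on, most of that sum was Hdc. It averaged 1365 CPM at 2 days, 599 CPM at 7 days, 1017.5 CPM at 14 days and 1475 CPM at 6 weeks. Tpsab1 and Mrgprb1, which define mast cells, were at 0 counts at 14 days and 6 weeks. The part of these cells in the changes from 2 days was not tested. In a joint test of any difference with age, 9 of 9 were called, beside 69.2% of all tested genes.

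The libraries of the ages compared often did not overlap. At 14 days against 7 days this held for 9 of the 9 genes (63.9% of all tested genes), at 6 weeks against 7 days for 9 (69.8%), at 6 weeks against 2 days for 8 (47.2%) and at 14 days against 2 days for 8 (33.4%). At 7 days against 2 days it held for 6 (55%), and at 6 weeks against 14 days for 3 (44.1%).

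**Figure D1:**
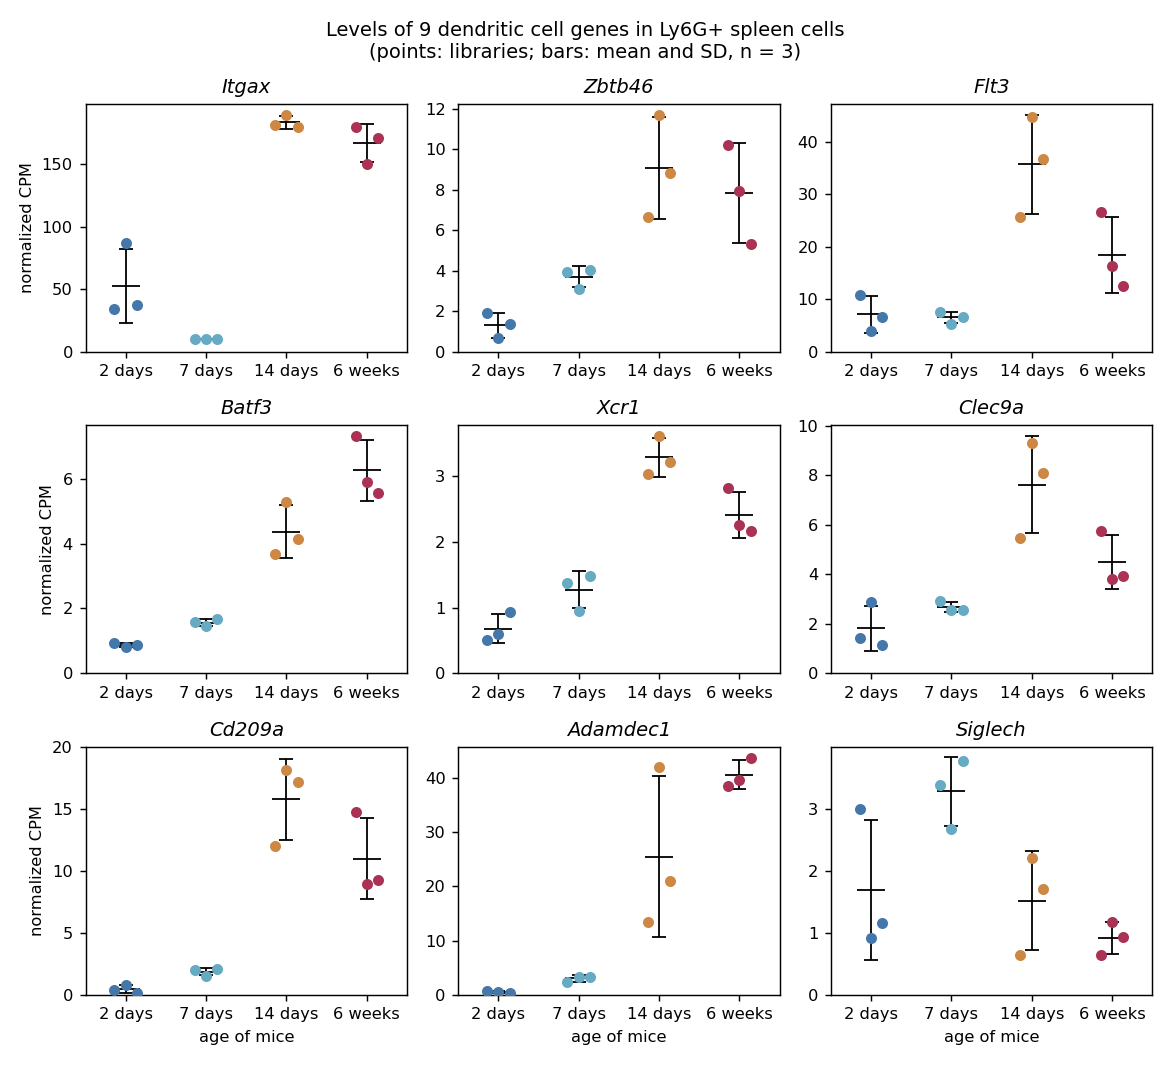
Level of each of the 9 genes in normalized CPM (vertical axes, each from 0) by age of the mice (horizontal axes), where points are libraries and bars give the mean and SD of 3. Itgax falls to about 10 CPM in every 7-day library, 7 other genes stand higher at 14 days than at 7 days, and Siglech is highest at 7 days.

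Itgax (chr7:128129547-128150657, plus strand) encodes CD11c, the alpha chain of an integrin that binds complement fragments and is carried by most dendritic cells and by many macrophages and monocytes. Its 2-day libraries held 34.0, 87.1 and 37.5 CPM and its 7-day libraries 10.2, 10.5 and 9.93 CPM, while the 14-day libraries held 182, 190 and 180 CPM and the 6-week libraries 180, 150 and 171 CPM. No 7-day library reached the lowest library of another age, and no 14-day or 6-week library overlapped a 2-day one. The gene fell to 10.2 ± 0.275 CPM at 7 days, against 52.8 ± 29.7 CPM at 2 days (log2 fold change -2.37, SE 0.29, adjusted p = 4.3e-05 with edgeR). Without 2-day replicate 2, the high library of that age, the value was -1.78 and the call held. From there it rose to 184 ± 5.18 CPM at 14 days (log2 fold change 4.17 over 7 days, SE 0.31, adjusted p = 2.35e-06). Levels of 167 ± 15.1 CPM at 6 weeks and 184 ± 5.18 CPM at 14 days did not differ by the test (adjusted p = 0.769).

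Zbtb46 (chr2:181387762-181459426, minus strand) encodes a zinc finger transcription factor that marks conventional dendritic cells and their committed precursors and is absent from plasmacytoid cells. It was at 1.89, 0.658 and 1.37 CPM at 2 days, 3.95, 3.10 and 4.05 CPM at 7 days, 6.65, 11.7 and 8.85 CPM at 14 days and 10.2, 7.95 and 5.30 CPM at 6 weeks. Libraries of 2, 7 and 14 days formed 3 ranges with no overlap, and those of 6 weeks lay across the 14-day range. Both early steps passed the test: 3.70 ± 0.522 CPM at 7 days against 1.31 ± 0.618 CPM at 2 days (log2 fold change 1.48, SE 0.35, adjusted p = 0.0043), and 9.07 ± 2.53 CPM at 14 days against the 7-day level (log2 fold change 1.29, SE 0.33, adjusted p = 0.00678). At 6 weeks against 7 days the log2 fold change of 1.08 was called (adjusted p = 0.0153), but not without 7-day replicate 2 (0.0593), without 6-week replicate 1 (0.0737) or with scaling by library totals alone (0.0757).

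Flt3 (chr5:147330741-147400489, minus strand) encodes the receptor tyrosine kinase for Flt3 ligand. It is carried by dendritic cells and also by multipotent progenitors of blood cells. At 2 days the libraries held 10.9, 3.92 and 6.55 CPM and at 7 days 7.55, 5.37 and 6.69 CPM, so the younger ages overlapped. At 14 days they held 25.7, 44.7 and 36.7 CPM and at 6 weeks 26.6, 16.3 and 12.5 CPM. No first-week change was called for Flt3: 6.54 ± 1.10 CPM at 7 days stood beside 7.12 ± 3.52 CPM at 2 days (log2 fold change -0.13, adjusted p = 0.79). It then rose 5.46-fold to 35.7 ± 9.51 CPM at 14 days (log2 SE 0.36, adjusted p = 0.000227). The level of 18.4 ± 7.27 CPM at 6 weeks was lower than at 14 days by 0.95 on the log2 scale without passing the test (adjusted p = 0.0732). The call was made under 8 of 21 alternatives, among them DESeq2 (0.0421), limma-voom (0.0344), and leaving out 2-day replicate 1 (0.0347), 2-day replicate 2 (0.0251) or 6-week replicate 1 (0.0403).

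Since Flt3 is also a gene of progenitors, 11 stem and progenitor genes were set beside it. The part of progenitors in the level of Flt3 was not tested. At 14 days against 7 days 6 of the 11 were lower and 1 was higher (Erg), a median of -1.53. Over all tested genes 21.9% were lower and 24% higher. Cd34 was at 1.42 ± 0.401 CPM at 14 days against 11.5 ± 1.21 CPM at 7 days, and Kit at 31.5 ± 3.99 CPM against 24.9 ± 2.95 CPM without a call. Summed over the list, the libraries ran from 245 to 473 CPM at 2 days, 187 to 210 CPM at 7 days, 122 to 139 CPM at 14 days and 79.5 to 104 CPM at 6 weeks, and 0 of the 11 genes were without counts at any age. Gata2 and Kit, which mast cells also carry, made up much of the 2-day sum: without them the other 9 summed to 102 to 163 CPM at 2 days, 150 to 174 CPM at 7 days, 92.3 to 103 CPM at 14 days and 50.8 to 81.4 CPM at 6 weeks.

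The type 1 conventional genes Batf3, Xcr1 and Clec9a were low at every age and climbed over the same interval. Batf3 (chr1:191097847-191108945, plus strand), a transcription factor on which these cells depend, stood at 0.945, 0.823 and 0.877 CPM at 2 days, 1.57, 1.46 and 1.66 CPM at 7 days, 3.68, 5.28 and 4.15 CPM at 14 days and 7.33, 5.91 and 5.55 CPM at 6 weeks. Libraries of the 4 ages did not overlap and stood in the order of age. Batf3 was at 1.56 ± 0.102 CPM at 7 days against 0.882 ± 0.0611 CPM at 2 days (log2 fold change 0.82, SE 0.21, adjusted p = 0.0067), and at 4.37 ± 0.823 CPM at 14 days (log2 fold change 1.48 over 7 days, SE 0.20, adjusted p = 0.000106). The level of 6.26 ± 0.942 CPM at 6 weeks was 0.52 above that of 14 days on the log2 scale and missed the threshold (adjusted p = 0.0732). It passed with DESeq2 (0.0416), with limma-voom (0.0497) and without 2-day replicate 2 (0.0468).

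Xcr1 (chr9:123852315-123862029, minus strand) encodes the receptor for the chemokine Xcl1, through which type 1 cells find CD8+ T cells and NK cells. Its levels were 0.511, 0.593 and 0.931 CPM at 2 days, 1.37, 0.953 and 1.48 CPM at 7 days, 3.04, 3.62 and 3.21 CPM at 14 days and 2.81, 2.25 and 2.16 CPM at 6 weeks. Its 14-day libraries were the highest and did not overlap those of any other age. Xcr1 rose to 3.29 ± 0.3 CPM at 14 days, against 1.27 ± 0.28 CPM at 7 days (log2 fold change 1.37, SE 0.26, adjusted p = 0.00122). The smaller step from 2 to 7 days was called (adjusted p = 0.0185 for a log2 fold change of 0.90). It was lost without 2-day replicate 1 (0.052) or 7-day replicate 3 (0.0596), and when the 6 libraries of those ages were fitted alone (0.066). Scaling by library totals alone also ended the call at 6 weeks against 7 days (adjusted p = 0.0549, against 0.011 as reported).

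Clec9a (chr6:129408862-129424763, plus strand) encodes a C-type lectin that recognises filaments exposed by dead cells. The 2-day libraries held 1.43, 2.86 and 1.15 CPM, those of 7 days 2.92, 2.57 and 2.54 CPM, those of 14 days 5.46, 9.31 and 8.12 CPM and those of 6 weeks 5.74, 3.81 and 3.94 CPM. Within 2 days replicate 2 reached the 7-day range, and the 14-day and 6-week libraries overlapped. The rise to 7.63 ± 1.97 CPM at 14 days, against 2.67 ± 0.21 CPM at 7 days, passed the test (log2 fold change 1.51, SE 0.31, adjusted p = 0.00206). At 6 weeks Clec9a was at 4.50 ± 1.08 CPM, which against 7 days missed the threshold (log2 fold change 0.75, adjusted p = 0.0624) although the libraries did not overlap. The call was made without 2-day replicate 2 (0.0169), without 14-day replicate 1 (0.0492), with DESeq2 (0.0427) and when the 6 libraries of those ages were fitted alone (0.00841). Without 2-day replicate 2 Clec9a was also called higher at 7 days than at 2 days (log2 fold change 1.07, adjusted p = 0.00713) and lower at 6 weeks than at 14 days (-0.77, adjusted p = 0.0205).

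In GENCODE M21, Clec9a shares 184 exon bases on the same strand with its neighbour Clec1b, a lectin receptor of platelets, so reads of the pair may have been divided between them. From 7 to 14 days Clec1b did not rise with Clec9a: it was at 8.28 ± 1.05 CPM against 9.51 ± 0.916 CPM at 7 days (log2 fold change -0.20, adjusted p = 0.56). At 6 weeks against 2 days both were called higher with edgeR. There the log2 fold change was 1.01 for Clec1b (adjusted p = 0.0093) and 1.32 for Clec9a (adjusted p = 0.00619). Clec1b was not called in any other comparison. None of the other 8 genes shared exon bases with an annotated gene.

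Across the 12 libraries Xcr1 and Clec9a had the most alike profiles of any pair among the 9, with a root mean square difference of 0.35 between their log2 CPM values after each was centred on its own mean. Batf3 and Zbtb46 followed at 0.42 and Batf3 and Xcr1 at 0.43, whereas Siglech and Adamdec1 were least alike at 2.49. The stretches before the starts of Xcr1 and Clec9a, the most alike pair, of Itgax, which dropped at 7 days, and of Siglech, which lacked the rise at 14 days, are shown for comparison. Each holds the 250 bases before the RefSeq start of the gene (build GRCm38.p6), read 5′ to 3′ on the strand of the gene, with capitals for any match on either strand to CANNTG (an E-box, bound by E proteins such as the plasmacytoid regulator Tcf4), TGANTCA (AP-1, the family of Batf3), GAGGAA (a core of PU.1 sites), the composite ETS and interferon regulatory factor element or the interferon-stimulated response element.
Xcr1, chr9:123862030-123862279, minus strand: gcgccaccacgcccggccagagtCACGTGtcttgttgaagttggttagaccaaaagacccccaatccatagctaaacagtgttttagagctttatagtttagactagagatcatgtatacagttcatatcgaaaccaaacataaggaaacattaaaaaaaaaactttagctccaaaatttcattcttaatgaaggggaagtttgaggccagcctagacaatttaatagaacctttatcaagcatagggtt
Clec9a, chr6:129408612-129408861, plus strand: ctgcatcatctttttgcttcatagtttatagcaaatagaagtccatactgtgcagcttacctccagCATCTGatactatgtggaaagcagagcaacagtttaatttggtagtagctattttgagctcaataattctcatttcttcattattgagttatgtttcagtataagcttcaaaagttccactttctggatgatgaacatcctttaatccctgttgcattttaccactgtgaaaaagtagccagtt
Itgax, chr7:128129300-128129549, plus strand: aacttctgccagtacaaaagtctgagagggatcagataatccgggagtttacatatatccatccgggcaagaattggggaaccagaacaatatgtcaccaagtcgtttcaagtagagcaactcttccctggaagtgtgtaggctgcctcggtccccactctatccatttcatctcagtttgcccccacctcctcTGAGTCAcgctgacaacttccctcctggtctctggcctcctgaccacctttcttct
Siglech, chr7:55767934-55768183, plus strand: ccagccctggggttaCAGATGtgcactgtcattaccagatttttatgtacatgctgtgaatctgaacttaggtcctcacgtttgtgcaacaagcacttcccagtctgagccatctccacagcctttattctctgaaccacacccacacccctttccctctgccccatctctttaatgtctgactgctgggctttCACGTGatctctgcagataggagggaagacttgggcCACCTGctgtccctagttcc
Xcr1 and Clec9a each held 1 E-box match and Siglech 3, while 66.2% of the 32851 windows in the table held at least 1. The Itgax window held 1 AP-1 match, 56 bases before the start, and 6.75% of all windows held one. GAGGAA occurred in 23.3%, the composite element in 2.3% and the interferon-stimulated response element in 2.98% of all windows, and in 0 of these 4. No matches overlapped each other in the 4 windows. RefSeq windows were found for 8 of the 9 genes, and Adamdec1 was the exception. Among the windows not shown, that of Zbtb46 held 5 E-box matches and 1 AP-1 match, 61 bases before the start. Batf3 held 2 E-box matches and 1 GAGGAA, Cd209a 2 E-box matches and Flt3 1. These matches describe letters and do not show binding.

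Cd209a and Adamdec1 climbed most over the whole interval, from the lowest starting levels per length of transcript apart from Xcr1 and Zbtb46. Cd209a (chr8:3743397-3748984, minus strand) encodes a mouse relative of the human lectin DC-SIGN and is found on type 2 conventional and monocyte-derived dendritic cells. It measured 0.358, 0.823 and 0.164 CPM at 2 days, 1.96, 1.53 and 2.06 CPM at 7 days, 11.99, 18.2 and 17.1 CPM at 14 days and 14.7, 8.95 and 9.29 CPM at 6 weeks. Its 2-day, 7-day and 14-day ranges lay apart, and the 6-week range overlapped that of 14 days. The gene was 8.49-fold higher at 14 days than at 7 days, with 15.8 ± 3.30 CPM against 1.85 ± 0.28 CPM (log2 SE 0.35, adjusted p = 3.65e-05). The first-week step, a log2 fold change of 2.09 (SE 0.42, adjusted p = 0.00142), rests on 45 counts over the 2-day libraries and was 2.82 without 2-day replicate 2. Likewise the value at 14 days against 2 days was 5.17, and 5.89 without that library.

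Of the 6 other Cd209 genes, 4 passed the filter on low counts, and none averaged over 1.91 CPM at any age. At 14 days against 7 days 3 were higher and 1 lower. Cd209b, a lectin of marginal zone macrophages, was at 1.91 ± 0.566 CPM at 14 days against 0.127 ± 0.0294 CPM at 7 days (log2 fold change 3.88, adjusted p = 0.000206). Cd209d rose by 3.91, and by 4.77 without 7-day replicate 1. Cd209f fell by 1.88 on the log2 scale, and by 2.73 with limma-voom. These are related genes of 1 cluster, and how reads matching several of them were counted is not given in the sources used here.

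Adamdec1 (chr14:68563380-68582095, minus strand) encodes a secreted disintegrin-like metalloprotease that is made by maturing dendritic cells and by tissue macrophages. Its levels were 0.639, 0.494 and 0.356 CPM at 2 days, 2.33, 3.33 and 3.37 CPM at 7 days, 13.5, 42.0 and 21.0 CPM at 14 days and 38.4, 39.6 and 43.5 CPM at 6 weeks. Its 14-day libraries were widely spread, and the highest of them lay within the 6-week range. Adamdec1 was 6.0-fold higher at 7 days than at 2 days (log2 fold change 2.59, SE 0.43, adjusted p = 0.000403) and rose again to 25.5 ± 14.8 CPM at 14 days (log2 fold change 3.08 over 7 days, SE 0.35, adjusted p = 3.72e-05). Without 14-day replicate 2 the last value was 2.49. At 6 weeks its 40.5 ± 2.68 CPM, against 25.5 ± 14.8 CPM at 14 days, missed the threshold (log2 fold change 0.67, adjusted p = 0.16) but passed it without the same library (1.23, adjusted p = 0.00639).

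Siglech (chr7:55768178-55778925, plus strand), a sialic acid-binding lectin that marks plasmacytoid dendritic cells in the mouse, did not share the rise at 14 days. The 2-day libraries held 2.99, 0.922 and 1.15 CPM, the 7-day libraries 3.38, 2.67 and 3.77 CPM, the 14-day libraries 0.642, 2.20 and 1.70 CPM and the 6-week libraries 0.641, 1.17 and 0.929 CPM. Its 7-day libraries lay above all those of 14 days and 6 weeks, and 2-day replicate 1 lay within the 7-day range. Siglech fell to 0.912 ± 0.263 CPM at 6 weeks, against 3.28 ± 0.557 CPM at 7 days (log2 fold change -1.84, SE 0.49, adjusted p = 0.00759). The value at 14 days against 7 days, -1.11 (SE 0.47), missed the threshold with edgeR (adjusted p = 0.0719). It passed under 6 of 21 alternatives, among them DESeq2 (-1.13, 0.049), limma-voom (-1.25, 0.0327) and leaving out 14-day replicate 2 (-1.51, 0.0468). Against 2 days none of the older ages differed by the test, except 7 days without 2-day replicate 1 (log2 fold change 1.71, adjusted p = 0.00842) and 6 weeks without 2-day replicate 2 and 14-day replicate 1 together (-1.19, adjusted p = 0.0181).

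**Figure D2:**
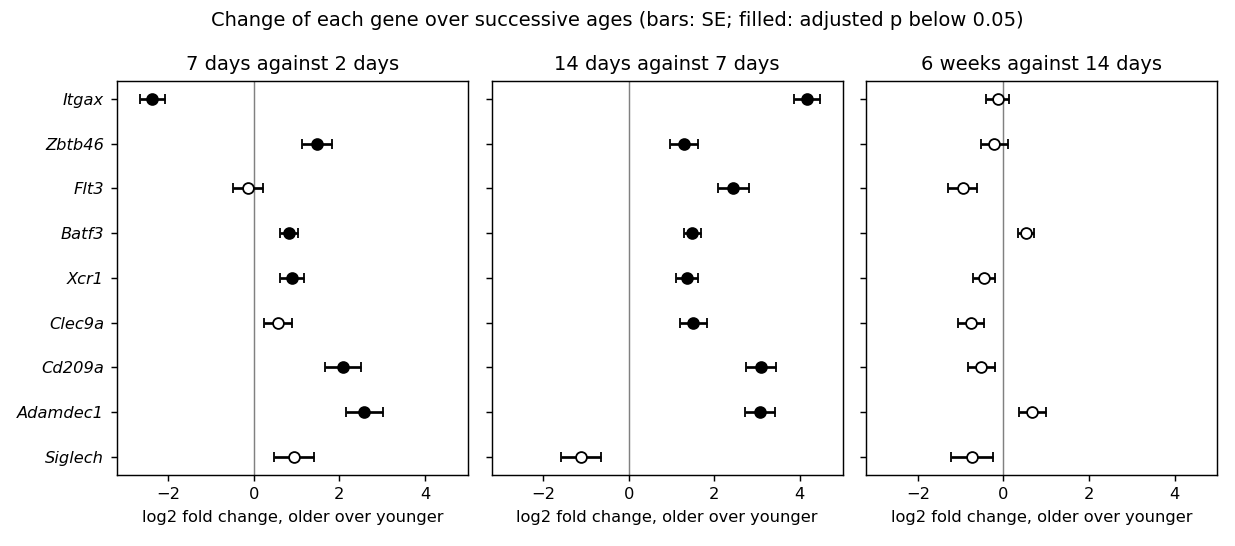
Log2 fold change of each gene (horizontal axes, older over younger age) for the 3 successive steps, with bars for the SE and filled points for an adjusted p below 0.05. The 8 filled points at 14 days against 7 days lie right of 0, Siglech lies left of it there, and no point is filled at 6 weeks against 14 days.

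Per kilobase of merged exons the order of the genes changed with age. At 6 weeks Itgax led with 34.8 CPM per kb, before Adamdec1 (16.6), Cd209a (6.94), Batf3 (3.92), Flt3 (2.99), Clec9a (1.37), Zbtb46 (0.92), Xcr1 (0.541) and Siglech (0.27). At 2 days Itgax again led with 11 CPM per kb, but Flt3 came next (1.15), and Siglech with 0.499 stood above Cd209a (0.283) and Adamdec1 (0.203).

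For Itgax the tested gene with the most alike profile was Il1b, which encodes interleukin 1 beta, with a root mean square difference of 0.35 over 12 libraries against a median of 1.72 over all tested genes. Il1b was at 405 ± 160 CPM at 2 days, 76.2 ± 14.4 CPM at 7 days, 1944 ± 684 CPM at 14 days and 1627 ± 397 CPM at 6 weeks. Its antisense neighbour Il1bos came second at 0.47, and since strand is not stated, reads of the pair cannot be told apart. For Flt3 the nearest genes were Mycl (0.26), a Myc family factor used by dendritic cells, and Adgra2 (0.28), against a median of 1.12. Mycl stood at 9.996 ± 3.12 CPM at 14 days against 1.89 ± 0.147 CPM at 7 days.

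Zbtb46 was nearest to St8sia6 (0.22) and Setbp1 (0.24), Batf3 to Tnfrsf18 (0.16), the gene of the costimulatory receptor GITR, and Slc8a2 (0.20), and Xcr1 to Slamf7 (0.19) and Cdk14 (0.24). For Clec9a they were Pot1b (0.26) and Cd80 (0.28), which encodes a costimulatory ligand of dendritic cells, and for Siglech Tarsl2 (0.18) and Ctps (0.22). Cd209a was nearest to Msantd3 (0.42) and Ace (0.44), a gene of non-classical monocytes that was at 288 ± 29.3 CPM at 14 days against 35.2 ± 6.70 CPM at 7 days. For Adamdec1 they were Adam23 (0.45) and Pla2g2d (0.47). These values use log2(CPM + 0.5). Of the 18 genes so named, 5 were also among the nearest with pseudocounts of 0.1 and 2 CPM: Mycl, St8sia6, Pot1b, Tarsl2 and Il1b.

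Other dendritic cell genes moved both ways. Of 63 others in 6 lists, 59 passed the filter. At 14 days against 7 days 24 were higher and 11 lower, where 24% of all tested genes were higher and 21.9% lower. In either direction 45.9% of all tested genes were called (medians 0.39 and, over all tested genes, 0.02). At 6 weeks against 2 days 32 were higher and 6 lower (median 0.73), where 19.7% and 20.7% of all were (40.4% in either direction). At 14 days against 2 days 29 were higher and 7 lower (median 0.81), where 12.8% and 12.3% of all were (25.1%). At 6 weeks against 7 days 24 were higher and 10 lower (median 0.62), where 26.6% and 24.5% of all were (51%). At 7 days against 2 days 25 were higher and 11 lower (median 0.40), where 22.9% and 25.8% of all were (48.7%). At 6 weeks against 14 days 10 were higher and 6 lower, where 9.26% and 9.68% of all were (18.9%). The counts of single lists that follow are to be read against the same shares.

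Among 14 other type 1 genes, 7 were higher and 1 lower at 14 days than at 7 days. Tlr11, a Toll-like receptor of mouse type 1 cells for a parasite protein, was at 4.16 ± 0.872 CPM at 14 days against 0.769 ± 0.0786 CPM at 7 days (log2 fold change 2.43, adjusted p = 1.74e-05). The lower gene was Cadm1, an adhesion molecule, with 12.4 ± 5.81 CPM at 14 days against 24.3 ± 0.930 CPM at 7 days, and it was highest at 6 weeks with 62.1 ± 5.97 CPM. Irf8, the transcription factor that type 1 and plasmacytoid cells and monocytes need, was at 131 ± 14.2 CPM at 7 days against 55.8 ± 13.4 CPM at 2 days (log2 fold change 1.23, adjusted p = 0.000438). Id2, an inhibitor of E proteins that type 1 cells also need, fell to 107 ± 3.15 CPM at 7 days, against 353 ± 43.6 CPM at 2 days.

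Of 11 other type 2 genes, 5 were higher and 0 lower at 14 days than at 7 days, or 7 and 1 without 2-day replicate 2 and 8 and 1 when those ages were fitted alone. A count of 5 called of 11 is close to the 45.9% of all tested genes called in that comparison. Clec4a4, the gene of the type 2 cell marker DCIR2, was at 3.24 ± 0.935 CPM at 14 days against 0.0862 ± 0.0678 CPM at 7 days (log2 fold change 5.20, and 5.93 without 7-day replicate 2, adjusted p = 4.53e-05 with all libraries). Its 7-day level rests on 10 counts. Klf4, a factor that part of the type 2 lineage needs, rose to 105 ± 38.6 CPM at 14 days, against 23.5 ± 0.755 CPM at 7 days, and fell to 34.1 ± 2.49 CPM at 6 weeks. Clec10a, a galactose-binding lectin of type 2 cells and macrophages, was lowest at 7 days. It measured 8.98 ± 1.99 CPM at 2 days, 1.43 ± 0.121 CPM at 7 days, 7.54 ± 1.95 CPM at 14 days and 3.15 ± 1.05 CPM at 6 weeks.

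Of 14 other plasmacytoid genes tested, 8 were higher and 3 lower at 7 days than at 2 days, or 4 or 5 higher when 2-day replicate 3, 7-day replicate 1 or 7-day replicate 3 was left out, and 2 were higher and 7 lower at 14 days than at 7 days. Tcf4, the factor that directs the plasmacytoid lineage, fell to 17.5 ± 3.83 CPM at 14 days, against 28.1 ± 2.16 CPM at 7 days (log2 fold change -0.68, adjusted p = 0.00624), and its partner Spib to 52.5 ± 25.5 CPM against 106 ± 12.4 CPM (-1.02, adjusted p = 0.0171). Ly6d and Dntt, which are shared with B cell precursors, fell by 1.99 and by 4.73. For Dntt the value was -5.72 without 14-day replicate 2, and its 14-day level rests on 18 counts. The genes that rose were Irf7, the factor that amplifies interferon genes, at 107 ± 9.29 CPM at 14 days against 38.01 ± 4.59 CPM at 7 days (log2 fold change 1.49, adjusted p = 2.64e-05), and Runx2, at 82.1 ± 14.4 CPM against 32.8 ± 3.94 CPM (1.32, adjusted p = 4.65e-05). Irf7, Runx2, Tcf4 and Spib are all used by other cells too.

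B cell markers moved in the same directions: 9 of 10 were higher at 7 days than at 2 days and 6 of 10 lower at 14 days than at 7 days, with 0 in the opposite direction in each. Their summed level ran from 298 to 415 CPM at 2 days, 659 to 751 CPM at 7 days, 197 to 533 CPM at 14 days and 504 to 644 CPM at 6 weeks, with 0 of the 10 at 0 counts at any age. Their part in the plasmacytoid values was not tested.

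Of 10 genes of mature and migratory dendritic cells, 6 were higher and 1 lower at 7 days than at 2 days, or 3 and 1 when those ages were fitted alone, and 3 were higher and 2 lower at 14 days than at 7 days. At 6 weeks 9 were higher and 1 lower than at 2 days. Cd83, a surface protein of activated dendritic and B cells, measured 48.1 ± 1.43 CPM at 6 weeks against 3.97 ± 1.10 CPM at 2 days (log2 fold change 3.59, adjusted p = 8.15e-07). Fscn1, the actin bundler of migrating dendritic cells, rose to 22.0 ± 4.10 CPM at 6 weeks, against 2.97 ± 0.905 CPM at 2 days. Socs2, an inhibitor of cytokine signalling, was the 1 lower gene.

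Among the ligands and receptors, Xcl1, the ligand of Xcr1, was at 0.668 CPM or less on average at every age. Csf2rb, the common beta chain of the GM-CSF receptor, which neutrophils also carry, was lowest at 7 days, with 758 ± 87.1 CPM at 2 days, 259 ± 39.8 CPM at 7 days, 505 ± 82.4 CPM at 14 days and 823 ± 115 CPM at 6 weeks. Flt3 ligand was sought under the symbol Flt3l, found no match among the annotated genes of the count table, and so was not analysed here. In this list of 6, 4 were higher and 0 lower at 14 days than at 7 days.

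**Figure D3:**
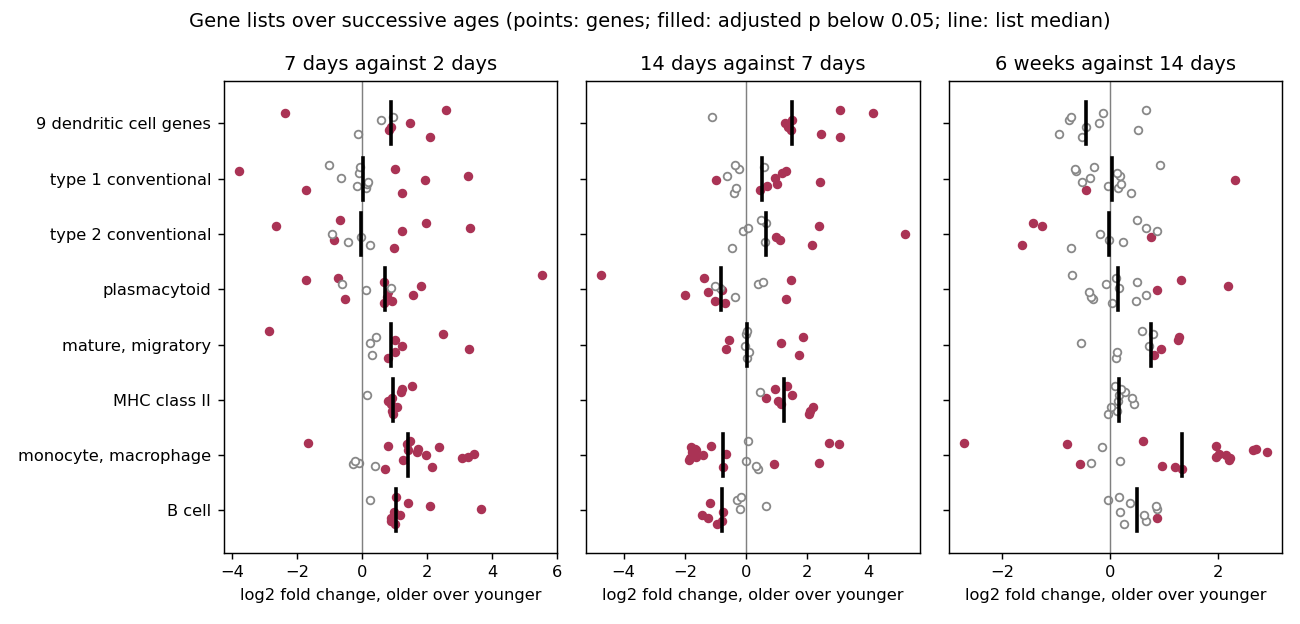
Log2 fold change (horizontal axes, older over younger age) of each tested gene in 8 lists for the 3 successive steps, with filled points for an adjusted p below 0.05 and a line at the median of each list. At 14 days against 7 days the 9 dendritic cell genes and the MHC class II genes lie mostly right of 0 (medians 1.51 and 1.25), and the plasmacytoid, monocyte and macrophage, and B cell lists mostly left of it (medians -0.81, -0.74 and -0.77).

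MHC class II genes, which dendritic cells, B cells and macrophages use to present antigen, rose at both early steps. At 7 days against 2 days 9 of 10 were higher, at 14 days against 7 days 9 of 10, and at 6 weeks against 14 days 0 of 10 were called. H2-Eb1 was at 44.0 ± 16.5 CPM at 2 days, 92.6 ± 13.5 CPM at 7 days, 420 ± 100 CPM at 14 days and 423 ± 77.2 CPM at 6 weeks. Ciita, the activator of class II transcription, was at 59.7 ± 20.1 CPM at 14 days against 23.3 ± 3.78 CPM at 7 days (log2 fold change 1.36, adjusted p = 0.00205).

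Itgax, Cd209a and Adamdec1 are also transcribed by monocytes and macrophages, and that list split at the same step. At 14 days against 7 days 4 of 19 were higher and 11 lower, with a median of -0.74, beside 24% and 21.9% of all tested genes. The higher ones were Ace, Nr4a1, Cx3cr1 and Ccr2, genes of non-classical and classical monocytes. Other monocyte genes of the list were nearly level. Treml4 was at 86.7 ± 6.07 CPM against 83.6 ± 2.28 CPM at 7 days, and Ly6c2 at 357 ± 54.5 CPM against 356 ± 5.68 CPM. The lower ones included the red pulp macrophage gene Spic, with 14.6 ± 7.17 CPM at 14 days against 38.7 ± 2.21 CPM at 7 days, and the complement genes C1qa, C1qb and C1qc. Summed, the 19 markers ran from 1544 to 2043 CPM at 2 days, 2676 to 2728 CPM at 7 days, 3065 to 3563 CPM at 14 days and 4759 to 5094 CPM at 6 weeks, with 0 of them at 0 counts at any age. Nr4a1, also an early response gene, carried the rise of this sum at 14 days: without it the other 18 summed to 1726 to 2046 CPM at 14 days, below the 2469 to 2533 CPM at 7 days. From 14 days to 6 weeks 13 of these markers were called higher and 3 lower, beside 9.26% and 9.68% of all tested genes. At that step 0 of the 9 dendritic cell genes were called with edgeR, 2 with DESeq2 and 2 with limma-voom. The part of monocytes and macrophages in the levels of Itgax, Cd209a and Adamdec1 was not tested.

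**Figure D4:**
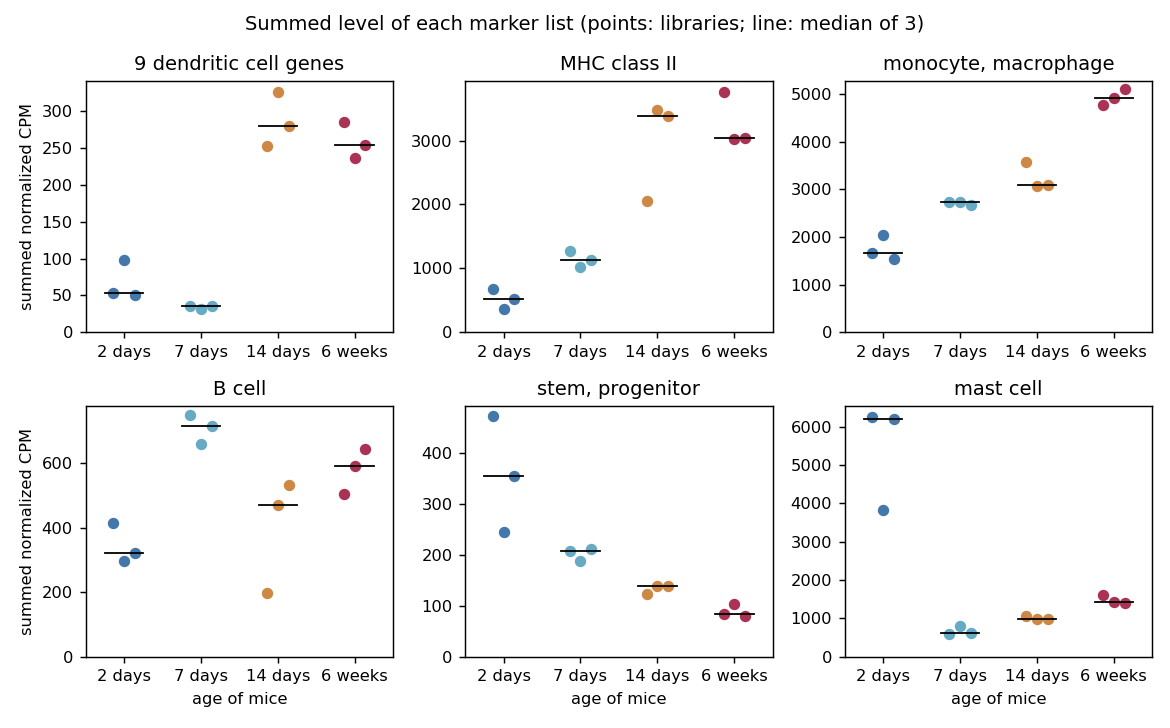
Summed normalized CPM (vertical axes, each from 0) of the 9 dendritic cell genes and of 5 marker lists by age (horizontal axes), where points are libraries and lines the median of 3. The 9 genes run from 31.5 to 35.5 CPM in the 7-day libraries and from 252 to 326.5 CPM in those of 14 days. That sum is mostly Itgax at 14 days (without it 21.0 to 25.6 CPM at 7 days and 70.6 to 137 CPM at 14 days). The B cell list is highest at 7 days and the mast cell list at 2 days. From 7 days on the mast cell sum is mostly Hdc.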

How the data were processed

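Whole-number counts per Ensembl gene for 12 libraries were deposited by the authors as 1 table. The submitters' processing notes name the build mm10, DESeq2 and RSEM 1.2.3 without saying what each tool was used for. RSEM divides reads among similar genes, so the counts may be rounded estimates. Strand, annotation and read filters are not given in the sources used here. Symbols and positions for 37570 of 38887 genes came from GENCODE M21 (GRCm38), and the other 1317 stayed in the totals.

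Library sizes were scaled by TMM (trimmed mean of M-values), and low counts were filtered with filterByExpr (minimum count 10), which 15494 genes and all 9 dendritic cell genes passed. The test was edgeR's quasi-likelihood test (edgeR 4.0.16, R 4.3.3) in 1 model of age over 12 libraries, with Benjamini-Hochberg adjustment over all tested genes. Fold changes are the older over the younger age. SE was obtained as |log2 fold change| over the root of the F statistic. Values with ± are mean and SD of 3 libraries. The procedure was tested on simulated counts.

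Alternatives were size factors of DESeq2, library totals, 2 other filters, DESeq2 1.42.0, limma-voom (limma 3.58.1), the 2 ages alone, a replicate block and leaving out each library. Leaving out 2-day replicate 2 and 14-day replicate 1 together, other pseudocounts for likeness, and sums without Itgax, Nr4a1 or Gata2 and Kit were added after seeing the data. Named others are, per list and comparison, the 2 largest called rises and falls. Irf8, Tcf4, Spib, Ciita, H2-Eb1, Clec1b, Cd34, Kit, Erg, Hdc, Spic and the named monocyte and complement genes lie outside that rule and were chosen after their values were seen. The members and lists were chosen with earlier results of these data known.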

Additional observations from a re-analysis of the deposited data

How the results depend on the processing

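Of the recomputed fold changes of the 9 genes, 1090 kept direction and side of the threshold, 7 lost the call, 31 gained it and 6 changed sign, all 6 for values not called. Those were Zbtb46 at 6 weeks against 14 days (-0.21, from -0.45 to 0.0057 without single libraries), Flt3 at 7 against 2 days (-0.13, from -0.39 to 0.37) and Siglech at 14 against 2 days (-0.16, from -0.51 to 0.57). The count of the 9 genes called at 6 weeks against 14 days, 0, was 1 with no filter, 2 with DESeq2, 2 with limma-voom, 1 with those ages alone, 4 without 2-day replicate 2 and 14-day replicate 1 together, and 0 to 3 without single libraries, the highest without 2-day replicate 2. Leaving out replicate 1 of 2 days, replicate 2 of 14 days or replicate 1 of 6 weeks gave 1 each. Without the pair of libraries named above 26 other dendritic cell genes were called in that comparison, against 16. Over all genes, the same comparison gave 2934 calls, 1677 to 4685 without single libraries and 4869 without the pair, and 14 against 2 days gave 3882, 2678 to 5833, 6249 without the pair and 1952 with those ages alone. The other counts over the 9 genes, the pooled 59 other dendritic cell genes and all genes stayed within 1.5 times under the alternatives run, which does not hold for each single list. Scaling by library totals moved the median of all genes at 6 weeks against 7 days to -0.16, against 0.01, and at 7 against 2 days to 0.14, against -0.01. The cause of these changes was not tested.

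Same-numbered libraries did not deviate together (correlation over 0.1 in 3 of 18 pairs, 2 of 12 libraries closest to their own number). With the replicate number as a block, 8 of the 9 genes were called at 6 weeks against 2 days, 8 at 14 against 7 days, 0 at 6 weeks against 14 days and 8, against 9, in the joint test. Counts below 50 over an age, as for Cd209a at 2 days, limit the precision of the first-week values.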
